A study of Gallus gallus with 9 samples.

Results

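The machinery that copies DNA and makes its deoxynucleotide precursors was followed through 52 genes in DF-1 cells, chicken embryo fibroblasts that became immortal without a transforming virus. They were taken by gene symbol from a list of 54 replication and nucleotide synthesis genes, and the table holds 15294 genes in all. POLD1 and POLD2, the catalytic subunit and a partner subunit of DNA polymerase delta, were not analysed here. The 9 libraries of poly-A RNA, all of wild-type cells, carry 3 group names with 3 libraries apiece: 2D, 3D_E and 3D_L. The study concerns the passage of this line from growth on a surface to growth in carrier-free suspension, and the sources used here do not spell out what E and L stand for. DF-1 is 1 established line, and separate cultures are not named for the replicates, so a p-value reflects the scatter among these libraries alone, which may be technical.

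Replication starts at origins, where the origin recognition complex, CDC6 and CDT1 load the MCM helicase during G1, and where geminin blocks CDT1 once S phase has begun. CDC45 and the GINS complex then switch the helicase on, DNA polymerases alpha, delta and epsilon copy the strands, and the sliding clamp PCNA, placed by the RFC loader, holds the polymerases on DNA. Thymidine kinase, thymidylate synthase and ribonucleotide reductase provide the precursors. In vertebrate cells most of these genes are transcribed under E2F control from late G1 on, and cells that leave the cycle carry little of their RNA. In a bulk library fewer cells in S phase and less RNA per cell cannot be told apart.

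Values are the authors' FPKM, fragments scaled by transcript length and library size, and the depth of each library is unknown. A library's summed FPKM lay between 641334 and 738281, and the 52 genes together held 0.478% to 0.507% of it in 2D, 0.125% to 0.158% in 3D_E and 0.378% to 0.406% in 3D_L. A change is a difference in log2(FPKM + 1), given ± SE, and on this scale the change of a low gene is understated. The SE of a gene is taken from all 9 libraries and is the same in each comparison. It is therefore not the spread of only the groups compared. A gene is called at an adjusted p under 0.05 in limma, a linear model fitted here to the 10436 genes that reached 1 FPKM in 3 or more libraries, with Benjamini-Hochberg adjustment over all of them. All 52 genes passed that filter. The libraries of 3D_E lay further apart than the others, with a root mean square SD over all tested genes of 0.29 against 0.12 in 2D and 0.16 in 3D_L. That scatter also enters the SE and the 95% interval of a change in 3D_L against 2D. Of 12 fibroblast markers 11 were tested and PDGFRA stayed under 1 FPKM, and all 12 summed to 2705 to 3350.2 FPKM for 2D, 5187 to 6497 for 3D_E and 4790.4 to 4868 for 3D_L. Against 2D, 2 of the 11 were lower and 4 higher in 3D_E, and 3 were lower and 6 higher in 3D_L. Of all tested genes, 32.1% were called lower and 36.1% higher in 3D_E, and 16.2% lower and 20.3% higher in 3D_L. The collagen chain COL1A1 had means ± SD (n = 3) of 839 ± 162, 472 ± 190.2 and 252 ± 3.68 FPKM for 2D, 3D_E and 3D_L, and the intermediate filament gene VIM 319.9 ± 11.8, 2581 ± 419 and 1899 ± 106. Markers of other cell types summed, over 16 genes, to 15.4 to 17.7 FPKM for 2D, 12.7 to 18.95 for 3D_E and 24.5 to 26.9 for 3D_L. Of those 16, 11 stayed under 1 FPKM in every library, among them EPCAM, MYOD1 and SOX2. Of the other 5, 1 was lower and 3 higher in 3D_E, and 0 lower and 3 higher in 3D_L, against 2D. The shares of all tested genes are those given above. CDH5, an endothelial cadherin, had means of 6.79, 1.51 and 9.83 FPKM for 2D, 3D_E and 3D_L, and the neurofilament gene NEFL 1.13, 1.97 and 7.05. CSF1R and PECAM1 were higher in 3D_E, at up to 2.75 and 2.35 FPKM. Both reached 1 FPKM only in 3D_E, so they passed the filter only through the group where they were high. CD3E had means of 7.45, 6.68 and 6.49 FPKM for 2D, 3D_E and 3D_L and was called in neither comparison. The part of these markers in the results below was not tested.

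Most of the replication genes were lowest in 3D_E, and in 3D_L most stood below 2D but nearer to it. MCM8, TIMELESS, POLD3, POLE and RRM2 had 3D_L means above their 2D means, without a call. In 3D_E against 2D, 48 of 52 were lower and 0 higher, where 32.1% of all tested genes were called lower and 36.1% higher. At least 1 on the log2 scale was lost by 39 of them, against 9.71% of all tested genes. Their median log2 change was -1.60, beside 0.05 for all tested genes. The 4 genes without a call were MCM8, TIMELESS, POLE and DNMT1. At an unadjusted p under 0.05 limma gave 49 lower and 0 higher, and the share of all tested genes at that cut was not counted. No 3D_E library overlapped 2D in 47 of the 52, where 33.5% of all tested genes lay apart in that direction.

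In 3D_L against 2D, 23 of the 52 were lower and 0 higher, where 16.2% of all tested genes were called lower and 20.3% higher. Quantile normalization changed the balance over all genes from 1686 lower and 2117 higher to 1976 lower and 1604 higher, and it left 24 of the 52 lower. The median change of the 52 genes was -0.32, beside 0.03 for all tested genes, and DCTD alone fell by at least 1, as did 1.27% of all tested genes. The count differed with the libraries in the fit: with only 2D and 3D_L in it, 39 of the 52 were lower, against 25.2% of all tested genes, and with a separate variance weight for each group 38 were, against 25.5%. All 23 were among those 39. At an unadjusted p under 0.05 the fit of all 9 libraries gave 33 of the 52 lower and 0 higher. The share of all tested genes at that cut was not counted. Without replicate 1 or 3 of 3D_E the count was 33 or 34, where 2305 of 10296 or 2197 of 10268 tested genes were lower. Without any 1 library of 2D it was 18 or 19, where 1060 to 1183 of 10373 to 10375 tested genes were lower. No library of 3D_L overlapped 2D in 39 genes, where 28.8% of all tested genes lay apart in that direction.

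In 3D_L against 3D_E, 48 of the 52 were higher and 0 lower, where 27.2% of all tested genes were called higher and 26.4% lower. Of these, 31 differed by at least 1, as did 5.80% of all tested genes, and the median change was 1.22, beside -0.0047 for all tested genes. MCM8, TIMELESS, RFC5 and DNMT1 were not called. At an unadjusted p under 0.05 limma gave 49 higher and 0 lower, again without a count of the share of all tested genes. The groups did not overlap in 48 of the 52, as in 29.4% of all tested genes in that direction. The comparisons share libraries, so their counts are not independent of each other. In 39 of the 52 genes every 3D_L library lay above every 3D_E library and below every 2D library, a pattern found in 14.3% of all tested genes. The plot of each library against the 2D mean shows these layers gene by gene.

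**Figure D1:**
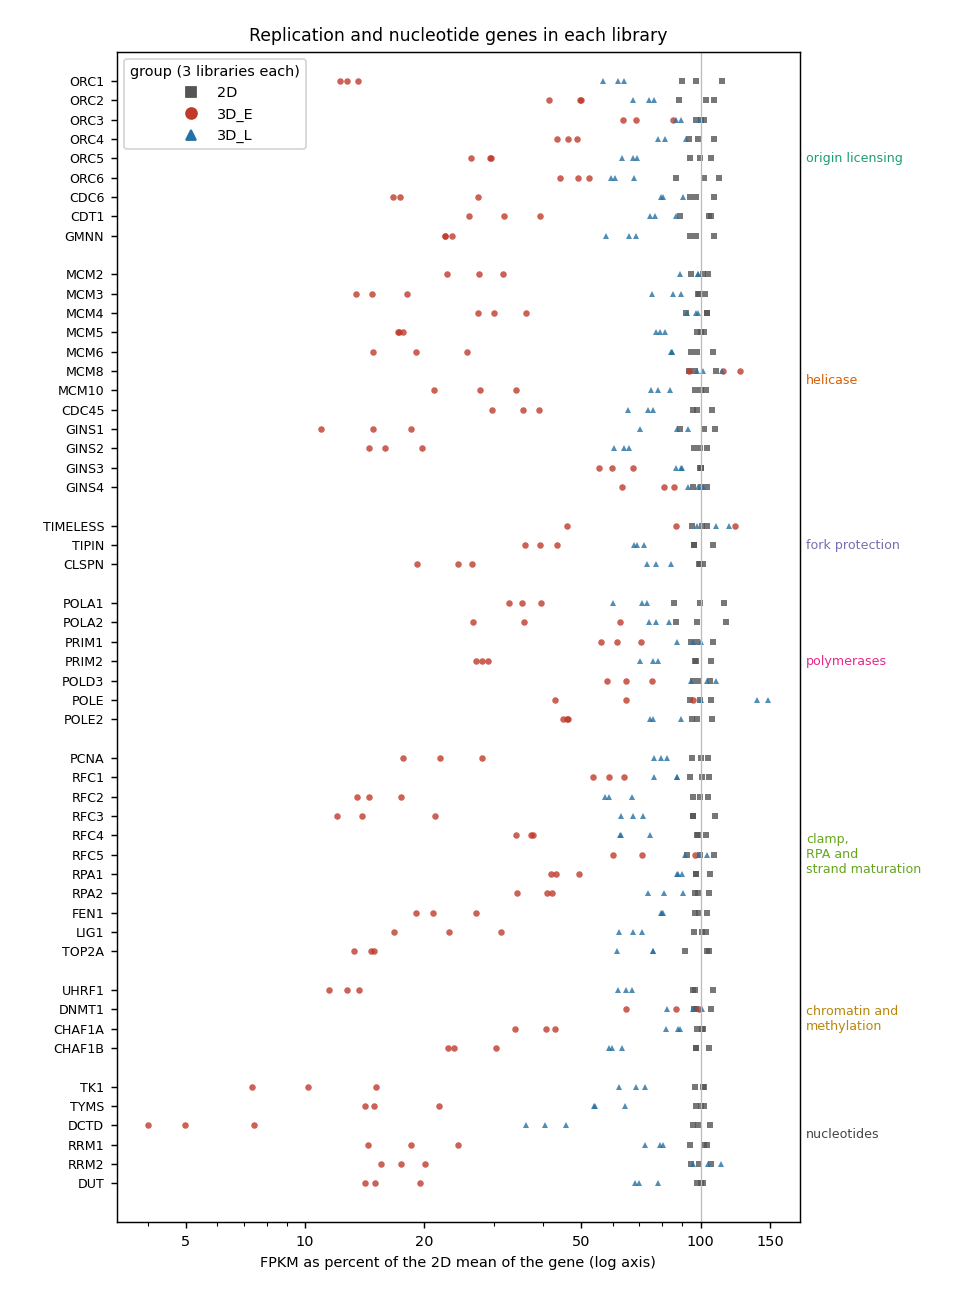
FPKM of each of the 52 genes in each of the 9 libraries, as a percent of the gene's mean in 2D (log axis), with genes in rows grouped by step, squares for 2D, circles for 3D_E and triangles for 3D_L. Circles of DCTD lie furthest to the left, at a mean of 5.48%, and those of MCM8 spread around 100%.

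Origin licensing genes fell in 3D_E without exception, 9 of 9, and 5 of 9 were lower in 3D_L, beside 32.1% and 16.2% of all tested genes. The fit of only 2D and 3D_L gave 8 of 9 lower in 3D_L, beside 25.2% of all tested genes. Among the subunits of the origin recognition complex the size of the fall differed widely. ORC1, the subunit that recruits the rest of the loading machinery and is degraded after G1 in human cells, had 15.3, 19.3 and 16.6 FPKM in the 2D libraries, 2.1, 2.18 and 2.32 in 3D_E and 10.96, 10.5 and 9.7 in 3D_L. The 3 groups did not overlap, and ORC1 stood at 12.9% of its 2D mean in 3D_E and at 60.9% in 3D_L. Its change was -2.49 ± 0.10 in 3D_E (limma, adjusted p = 4.10e-08) and -0.66 ± 0.10 in 3D_L (limma, adjusted p = 8.09e-04). ORC3, by contrast, had 17.1, 16.8 and 16.2 FPKM in the 2D libraries, 10.6, 11.5 and 14.2 in 3D_E and 14.5, 16.7 and 14.9 in 3D_L. Its 3D_E libraries lay below all others, though only narrowly below 3D_L, and 3D_L overlapped 2D. The change was -0.44 ± 0.11 in 3D_E (limma, adjusted p = 0.00568), with -0.12 in 3D_L (95% interval -0.37 to 0.13). ORC3 was higher in 3D_L than in 3D_E by 0.33 ± 0.11 (limma, adjusted p = 0.0328). This call was lost under 10 of 18 alternatives (limma, adjusted p from 0.00287 to 0.121 over all of them). ORC6, a small subunit, kept 48.5% of its 2D mean in 3D_E and had 13.4, 15.9 and 14.98 FPKM there against 18.1, 18.5 and 20.8 in 3D_L and 31.1, 33.9 and 26.5 in 2D. It was the gene of this step nearest to its 3D_E level in 3D_L apart from ORC3, with a difference of 0.35 ± 0.11 (limma, adjusted p = 0.0248). That call was lost under 3 of 18 alternatives (limma, adjusted p from 0.0143 to 0.115 over all of them). ORC2, ORC4 and ORC5 stood at 46.9%, 46.05% and 28.4% in 3D_E and at 72.6%, 83.9% and 66.6% in 3D_L, and ORC4, at 102 ± 7.52 FPKM in 2D, was the most abundant of the subunits.

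CDC6, the loader that joins the complex at the origin, had 17.6, 15.3 and 15.9 FPKM in the 2D libraries, 2.82, 2.72 and 4.46 in 3D_E and 13.1, 12.9 and 14.7 in 3D_L. Every 3D_E library was under all libraries of the other groups, and 3D_L lay just below 2D without overlap. CDC6 was lower, at -2.01 ± 0.15 in 3D_E (limma, adjusted p = 1.52e-06), and in 3D_L its change of -0.25 was not called (limma, adjusted p = 0.217). It was called under 3 of 18 alternatives (limma, adjusted p from 0.0284 to 0.437 over all of them). GMNN, geminin, the inhibitor of CDT1, had 47.9, 55.2 and 49.7 FPKM in the 2D libraries, 11.97, 11.5 and 11.5 in 3D_E and 29.4, 33.7 and 34.98 in 3D_L. All 3 groups lay apart, and GMNN was lower both in 3D_E, at -2.03 ± 0.09 (limma, adjusted p = 8.22e-08), and in 3D_L, at -0.63 ± 0.09 (limma, adjusted p = 7.13e-04). CDT1 itself stood at 32.4% in 3D_E and 79.3% in 3D_L, where it was not called (limma, adjusted p = 0.104, and adjusted p = 0.014 with only 2D and 3D_L in the fit). The ratio of CDT1 to GMNN was 0.921 ± 0.153 in 2D, 1.29 ± 0.288 in 3D_E and 1.13 ± 0.0638 in 3D_L. It was above every 2D library in 3D_L (2-sided exact permutation p = 0.1 against 2D, adjusted p = 0.138) and overlapped 2D in 3D_E (2-sided exact permutation p = 0.2 against 2D, adjusted p = 0.24). Ratios are given as the mean ± SD of 3 libraries, and the permutation test compares their log2 values. For such ratios 3 libraries against 3 cannot give less than 0.1. The ratios given here and further below are 6, chosen after their values were seen and adjusted over 18 tests. That choice favours groups that lie apart, so a lack of overlap in any of these ratios is no separate result.

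Helicase genes fell in 11 of 12 cases in 3D_E, beside 32.1% of all tested genes, and in 3 of 12 in 3D_L. With only 2D and 3D_L in the fit the latter count was 7 of 12, where 25.2% of all tested genes were lower, against 16.2% with all 9 libraries in it. MCM2 stood at 95.3% of its 2D mean in 3D_L and MCM4 at 96.2%, both with libraries inside the range of 2D, and MCM3, MCM5 and MCM6 at 83.2%, 79.2% and 84.4%. MCM3 had 74.6, 77.8 and 75.4 FPKM in the 2D libraries, 13.8, 11.2 and 10.2 in 3D_E and 67.6, 64.6 and 57.4 in 3D_L. Every 3D_L library stood below every 2D library and far above every 3D_E library, with a change of -2.60 ± 0.11 in 3D_E against 2D (limma, adjusted p = 5.58e-08) and of 2.34 ± 0.11 in 3D_L against 3D_E (limma, adjusted p = 3.90e-07). Its change in 3D_L against 2D, -0.26, was not called (limma, adjusted p = 0.095, and adjusted p = 0.0127 with only those 2 groups in the fit; 0.0101 to 0.244 over 18 alternatives). Among MCM2 to MCM6, MCM5 was the subunit called lower in 3D_L with all 9 libraries in the fit, at -0.33 ± 0.07 (limma, adjusted p = 0.00595). MCM7, also a subunit of this helicase, was not matched by symbol and was not analysed here. MCM8 is a relative of these subunits that acts in recombination repair and not in the loaded helicase, and it had 5.75, 4.91 and 5.08 FPKM in the 2D libraries, 4.9, 5.99 and 6.62 in 3D_E and 5.95, 5.33 and 5.14 in 3D_L. The groups overlapped, and neither its change in 3D_E, 0.12 (95% interval -0.13 to 0.38), nor that in 3D_L, 0.05 (95% interval -0.20 to 0.31), was called. Both took the other sign under quantile normalization.

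Among the helicase activators, GINS1, a subunit of the GINS complex, had 32.3, 26.3 and 30.1 FPKM in the 2D libraries, 3.25, 4.4 and 5.48 in 3D_E and 25.8, 20.8 and 27.4 in 3D_L. The 3D_E libraries were far below both other groups, at 14.8% of the 2D mean, and 3D_L overlapped 2D. GINS4, of the same complex, had 61.3, 56.6 and 59.2 FPKM in the 2D libraries, 50.5, 47.8 and 37.3 in 3D_E and 59.9, 55.03 and 58.2 in 3D_L. Its 3D_E libraries were below all others by a small margin, with a change of -0.39 ± 0.11 (limma, adjusted p = 0.0124), and this call was lost under quantile normalization (adjusted p = 0.0812; 0.0022 to 0.0812 over 18 alternatives). The ratio of GINS1 to GINS4 was 0.5001 ± 0.03199 in 2D, 0.101 ± 0.04204 in 3D_E and 0.426 ± 0.0475 in 3D_L, lower in each 3D_E library than in any library of the other groups (2-sided exact permutation p = 0.1 against 2D, adjusted p = 0.138). GINS2 stood at 16.7% in 3D_E and, at -0.65 ± 0.11, was the helicase gene with the largest fall in 3D_L (limma, adjusted p = 0.00145). It had 79.9, 77.3 and 83.4 FPKM in the 2D libraries, 15.8, 12.8 and 11.6 in 3D_E and 52.8, 48.4 and 51.3 in 3D_L, and the groups did not overlap. CDC45, the third part of the active helicase, was also lower in 3D_L, at -0.46 ± 0.11 (limma, adjusted p = 0.00952), with 13.5, 15.2 and 15.6 FPKM against 19.7, 21.9 and 20.1 in 2D and 6.1, 7.32 and 8.05 in 3D_E. MCM10, which acts as origins fire, stood at 27.7% and 78.9% and GINS3 at 60.9% and 88.6% of their 2D means in 3D_E and 3D_L.

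Of the fork protection genes, 2 of 3 fell in 3D_E and 2 of 3 in 3D_L, beside 32.1% and 16.2% of all tested genes. The fit of only 2D and 3D_L also gave 2 of 3 in 3D_L, beside 25.2% of all tested genes. CLSPN, claspin, which passes the replication checkpoint signal from ATR to CHK1, had 5.92, 5.87 and 6.03 FPKM in the 2D libraries, 1.14, 1.45 and 1.57 in 3D_E and 4.59, 4.99 and 4.36 in 3D_L. The groups lay apart, with changes of -1.54 ± 0.10 in 3D_E (limma, adjusted p = 5.83e-07) and -0.30 ± 0.10 in 3D_L (limma, adjusted p = 0.0364). The call in 3D_L was lost under 10 of 18 alternatives (limma, adjusted p from 0.00273 to 0.111 over all of them), among them the fits without any 1 library of 2D or 3D_L. TIPIN, the partner of TIMELESS, had 109, 122 and 109 FPKM in the 2D libraries, 49.1, 44.5 and 40.7 in 3D_E and 76.9, 78.2 and 81.6 in 3D_L, again without overlap between groups. It was lower, at -1.32 ± 0.09 in 3D_E and at -0.52 ± 0.09 in 3D_L (limma, adjusted p = 1.39e-06 and 0.00223). TIMELESS had 6.41, 5.86 and 6.22 FPKM in the 2D libraries, 2.83, 5.35 and 7.52 in 3D_E and 6.76, 7.29 and 6.05 in 3D_L. In 3D_E 2 libraries were below all 2D libraries and the other above them, and the change of -0.27 ± 0.23 was not called (limma, adjusted p = 0.317). Without replicate 3 of 3D_E it was called, at -0.54 (adjusted p = 0.0207; 0.0207 to 0.796 over 18 alternatives), and without replicate 1 the change took the other sign, at 0.04.

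Polymerase and primase genes fell in 6 of 7 cases in 3D_E, with a median of -1.10, the smallest among the steps, and in 3 of 7 in 3D_L. Of all tested genes 32.1% and 16.2% were lower. In the fit of only 2D and 3D_L it was 4 of 7 in 3D_L, beside 25.2% of all tested genes. PRIM2, the large primase subunit, had 28.3, 31.03 and 28.4 FPKM in the 2D libraries, 7.94, 8.5 and 8.21 in 3D_E and 20.5, 22.2 and 22.9 in 3D_L. The groups did not overlap, and the change was -1.71 ± 0.08 in 3D_E (limma, adjusted p = 1.12e-07) and -0.40 ± 0.08 in 3D_L (limma, adjusted p = 0.00446). PRIM1, the catalytic primase subunit, kept 62.7% of its 2D mean in 3D_E against 28.1% for PRIM2, with 49.7, 43.7 and 45.2 FPKM in the 2D libraries, 25.9, 28.4 and 32.7 in 3D_E and 44.1, 40.2 and 46.4 in 3D_L. In it 3D_L and 2D overlapped and 3D_E lay below both. POLA1, the catalytic subunit of DNA polymerase alpha, had 20.8, 27.8 and 24.3 FPKM in the 2D libraries, 7.95, 8.58 and 9.58 in 3D_E and 17.3, 17.8 and 14.6 in 3D_L. It was lower in 3D_E, at -1.38 ± 0.12 and in 3D_L at -0.52 ± 0.12 (limma, adjusted p = 7.49e-06 and 0.00937), and no groups overlapped. POLA2, its second subunit, had 20.1, 15.1 and 17.01 FPKM in the 2D libraries, 4.63, 6.24 and 10.9 in 3D_E and 12.9, 13.4 and 14.5 in 3D_L. Replicate 3 of 3D_E stood well above the other two but below every 3D_L library, and the change was -1.22 ± 0.23 (limma, adjusted p = 0.00101).

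POLE encodes the catalytic subunit of DNA polymerase epsilon, the leading strand enzyme, and had 9.73, 9.21 and 10.4 FPKM in the 2D libraries, 4.19, 6.33 and 9.36 in 3D_E and 14.5, 13.6 and 9.82 in 3D_L. In 3D_E a library lay within the 2D range and the others below it, and in 3D_L 2 of 3 libraries lay above every 2D library and the other within their range. Neither the change in 3D_E, -0.55 ± 0.23 (limma, adjusted p = 0.0513), nor that in 3D_L, 0.32 ± 0.23 (limma, adjusted p = 0.295), was called, and the former was called under 4 of 18 alternatives (limma, adjusted p from 0.00206 to 0.13 over all of them): without replicate 3 of 3D_E or of 3D_L and under quantile or median-of-ratios scaling. POLE was higher in 3D_L than in 3D_E by 0.88 ± 0.23 (limma, adjusted p = 0.00936). POLE2, the second subunit, stood at 45.7% in 3D_E and 79.9% in 3D_L and was lower in both (limma, adjusted p = 4.89e-06 and 0.0239). POLD3, an accessory subunit of DNA polymerase delta, had 33.5, 34.6 and 36.9 FPKM in the 2D libraries, 26.5, 22.6 and 20.3 in 3D_E and 38.3, 36.4 and 33.1 in 3D_L. It was lower in 3D_E, at -0.58 ± 0.11 (limma, adjusted p = 9.23e-04), and 3D_L overlapped 2D with a difference of 0.04 (95% interval -0.21 to 0.28).

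The clamp, its loader, the single-strand binding proteins and the enzymes that finish the new strands fell in 11 of 11 cases in 3D_E, with a median change of -1.98, and in 5 of 11 in 3D_L. Of all tested genes 32.1% and 16.2% were lower. In the fit of only 2D and 3D_L it was 10 of 11 in 3D_L, beside 25.2% of all tested genes. PCNA had the highest FPKM of the 52 genes in every group, with 337, 369 and 354 FPKM in the 2D libraries, 98.9, 77.5 and 62.5 in 3D_E and 280.5, 270.4 and 292 in 3D_L. Its groups did not overlap, and 3D_E held 22.5% and 3D_L 79.4% of the 2D mean. The change in 3D_E was -2.16 ± 0.14 (limma, adjusted p = 9.31e-07), and that in 3D_L, -0.33, was not called (limma, adjusted p = 0.102, and adjusted p = 0.00236 with only 2D and 3D_L in the fit).

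The loader subunits differed in how much RNA they kept. RFC2 had 119, 130.2 and 125 FPKM in the 2D libraries, 21.8, 18.1 and 16.9 in 3D_E and 71.7, 73.1 and 83.8 in 3D_L. It was at 15.2% of its 2D mean in 3D_E and, with -0.71 ± 0.11, had the largest fall of this step in 3D_L (limma, adjusted p = 8.80e-04), with no overlap between groups. RFC3 had 43.7, 49.9 and 43.7 FPKM in the 2D libraries, 9.77, 6.37 and 5.52 in 3D_E and 28.9, 30.9 and 32.7 in 3D_L. It was close to RFC2 in 3D_E, at 15.8%, and lower in 3D_L, at -0.55 ± 0.17 (limma, adjusted p = 0.0257), a call lost under 6 of 18 alternatives (limma, adjusted p from 3.88e-04 to 0.0982 over all of them), among them the fits without any 1 library of 2D. RFC4 had 132, 139 and 132 FPKM in the 2D libraries, 50.5, 50.1 and 45.9 in 3D_E and 84.7, 83.9 and 100.3 in 3D_L, so that its groups lay apart with 36.3% of the 2D level left in 3D_E. RFC1, the large subunit, stood at 58.8% and 83.5% in 3D_E and 3D_L. RFC5 had 71.3, 60.9 and 65.7 FPKM in the 2D libraries, 39.5, 47 and 63.7 in 3D_E and 65.2, 60.4 and 68.3 in 3D_L. A 3D_E library lay inside the 2D range and the others below it, and the call in 3D_E (change -0.42 ± 0.15, limma, adjusted p = 0.0357) was lost under 8 of 18 alternatives (limma, adjusted p from 5.52e-04 to 0.205 over all of them).

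TOP2A, the topoisomerase that untangles copied chromosomes, had 136, 154 and 157 FPKM in the 2D libraries, 21.9, 19.8 and 22.2 in 3D_E and 113, 113 and 91.6 in 3D_L. It was lower in 3D_E, at -2.75 ± 0.11 (limma, adjusted p = 3.69e-08), the largest fall of this step, and in 3D_L at -0.49 ± 0.11 (limma, adjusted p = 0.00655), with 1 of the 3D_L libraries well below the other two. FEN1, which cuts the flaps of Okazaki fragments, stood at 22.4% in 3D_E and 79.8% in 3D_L, and LIG1, the ligase that seals them, at 23.7% and 67.1%. LIG1 was called lower in 3D_L (limma, adjusted p = 0.0275). FEN1, whose groups did not overlap, was not called there (limma, adjusted p = 0.0593, and adjusted p = 0.00138 with only 2D and 3D_L in the fit). RPA1 and RPA2, which coat single-stranded DNA, kept 44.7% and 39.1% in 3D_E and 88.3% and 81.6% in 3D_L.

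Of the genes that restore chromatin behind the fork, 3 of 4 fell in 3D_E and 2 of 4 in 3D_L. Among all tested genes 32.1% and 16.2% were lower. The fit of only 2D and 3D_L gave 3 of 4 in 3D_L, beside 25.2% of all tested genes. UHRF1, which reads hemimethylated DNA and brings DNMT1 to it, had 94.8, 106 and 95.7 FPKM in the 2D libraries, 13.6, 11.4 and 12.7 in 3D_E and 64.05, 66.4 and 61.4 in 3D_L. The groups lay apart, and UHRF1 was lower, at -0.62 ± 0.09 in 3D_L (limma, adjusted p = 6.43e-04) and higher there than in 3D_E by 2.27 ± 0.09 (limma, adjusted p = 1.81e-07). DNMT1, the methyltransferase that UHRF1 recruits, had 25.2, 24.9 and 27.4 FPKM in the 2D libraries, 16.7, 22.4 and 25.6 in 3D_E and 25.98, 24.6 and 21.3 in 3D_L. All 3 groups overlapped, and its change was -0.27 in 3D_E (95% interval -0.59 to 0.06) and -0.11 in 3D_L (95% interval -0.43 to 0.22). Without replicate 3 of 3D_E, DNMT1 was called lower in 3D_E, at -0.39 (adjusted p = 0.0196; 0.0196 to 0.408 over 18 alternatives). CHAF1B, a subunit of the chromatin assembly factor that deposits histones on new DNA, had 28.6, 30.7 and 28.5 FPKM in the 2D libraries, 6.72, 6.96 and 8.91 in 3D_E and 17.1, 18.5 and 17.4 in 3D_L. It was lower in 3D_E, at -1.84 ± 0.11 and in 3D_L at -0.69 ± 0.11 (limma, adjusted p = 3.60e-07 and 8.13e-04), without overlap. CHAF1A, the large subunit, stood at 39.1% in 3D_E and 85.96% in 3D_L, and its change in 3D_L was not called (limma, adjusted p = 0.118, and adjusted p = 0.0185 with only 2D and 3D_L in the fit).

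**Figure D2:**
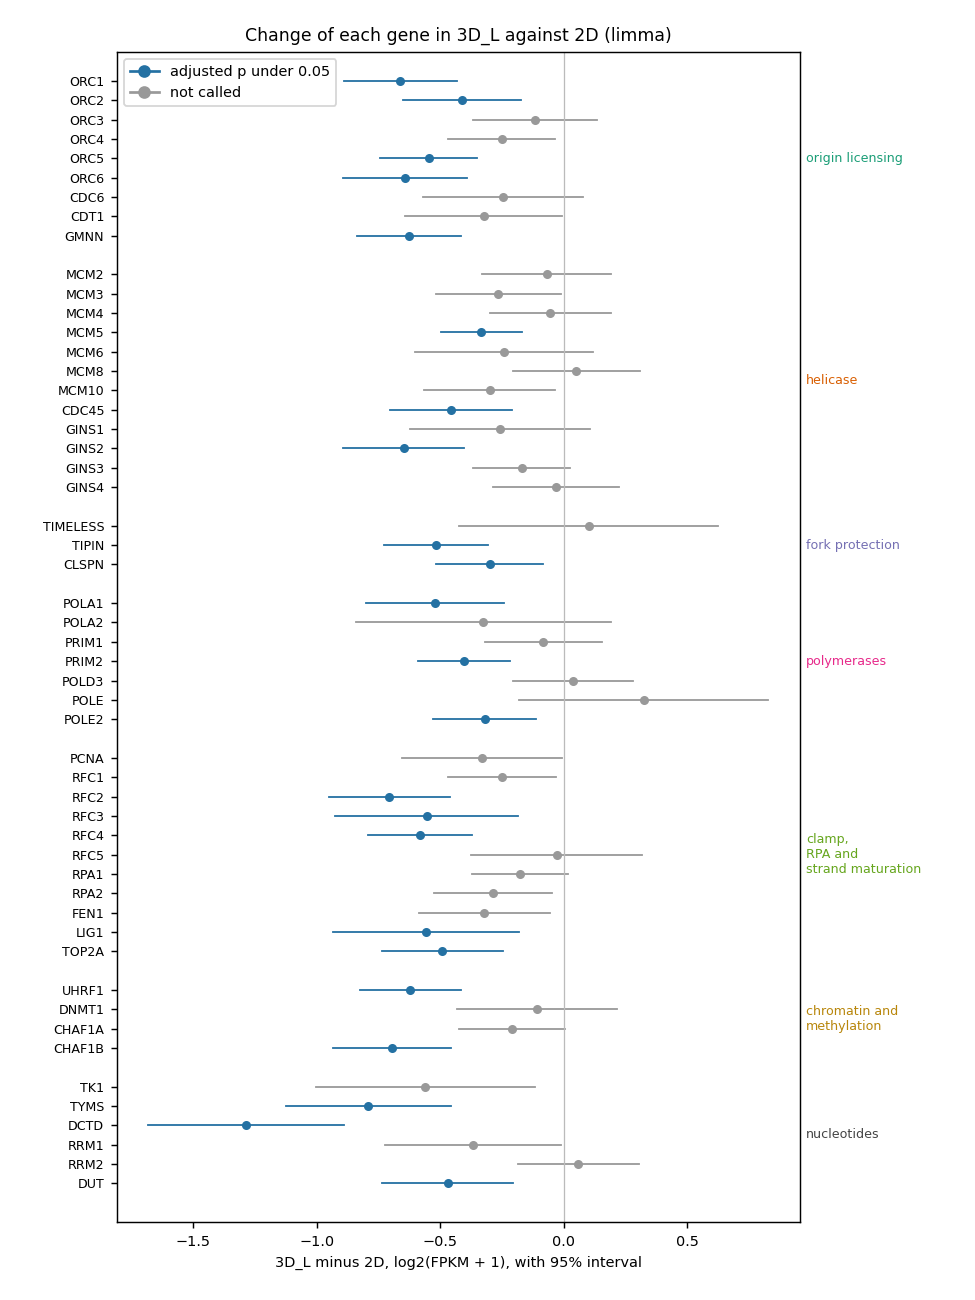
Difference between 3D_L and 2D in log2(FPKM + 1) for each of the 52 genes (limma estimate with its 95% interval, genes in rows grouped by step), in blue where the adjusted p is under 0.05 and in grey where it is not. DCTD lies furthest from 0, at -1.29, while RRM2, MCM2, MCM4 and GINS4 lie near it.

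The 6 nucleotide synthesis genes had the largest median fall of the steps in 3D_E, -2.55 with 6 of 6 lower, and 3 of 6 were lower in 3D_L. Among all tested genes 32.1% and 16.2% were lower. This rank holds for these 6 only. In 28 further nucleotide enzymes, described below, the median in 3D_E was -0.66, with 19 lower and 3 higher. In the fit of only 2D and 3D_L it was 5 of 6 in 3D_L, beside 25.2% of all tested genes. DCTD, dCMP deaminase, which makes the dUMP that thymidylate synthase uses, had 133, 147 and 137 FPKM in the 2D libraries, 10.4, 6.93 and 5.59 in 3D_E and 50.5, 56.2 and 63.6 in 3D_L. It kept 5.48% of its 2D mean in 3D_E and 40.7% in 3D_L, with wide gaps between all 3 groups. Its change was the largest of the 52 genes in each comparison, -4.06 ± 0.18 in 3D_E, -1.29 ± 0.18 in 3D_L and 2.77 ± 0.18 in 3D_L against 3D_E (limma, adjusted p = 5.91e-08, 4.20e-04 and 1.98e-06). TYMS, thymidylate synthase, had 98.7, 101 and 95.6 FPKM in the 2D libraries, 21.5, 13.9 and 14.7 in 3D_E and 53.01, 53.3 and 63.3 in 3D_L. It was lower in 3D_L, at -0.79 ± 0.15 (limma, adjusted p = 0.0027) and did not overlap between groups. DUT, the dUTPase that keeps uracil out of DNA and also yields dUMP, stood at 16.3% in 3D_E and 72.1% in 3D_L and was lower in both (limma, adjusted p = 7.79e-08 and 0.0122).

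TK1, thymidine kinase of the salvage route, had 134, 140.2 and 141 FPKM in the 2D libraries, 20.96, 14.1 and 10.2 in 3D_E and 100.3, 94.98 and 86.2 in 3D_L. The groups lay apart, and the change in 3D_L, -0.56 ± 0.20, fell just short of a call (limma, adjusted p = 0.0511, and adjusted p = 2.14e-04 with only 2D and 3D_L in the fit; 2.14e-04 to 0.139 over 18 alternatives). The ratio of TYMS to TK1 was 0.7097 ± 0.03099 in 2D, 1.15 ± 0.251 in 3D_E and 0.608 ± 0.1102 in 3D_L, higher in every 3D_E library than in any other (2-sided exact permutation p = 0.1 against 2D, adjusted p = 0.138).

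Ribonucleotide reductase, which turns ribonucleotides into deoxyribonucleotides, has a large and a small subunit. RRM2, the small subunit, whose protein is made in S phase, had 115, 124 and 109.9 FPKM in the 2D libraries, 23.4, 20.4 and 18.1 in 3D_E and 111, 122 and 131 in 3D_L. In 3D_L the libraries ran from inside the range of 2D to above it, at 104% of the 2D mean and a change of 0.06 (95% interval -0.19 to 0.31), although RRM2 was lower, at -2.44 ± 0.11 in 3D_E (limma, adjusted p = 6.93e-08). RRM1, the large subunit, had 161, 177 and 174 FPKM in the 2D libraries, 41.7, 31.8 and 24.7 in 3D_E and 138, 135 and 124 in 3D_L. It stayed under every 2D library in 3D_L, at 77.4%, with a change of -0.37 that was not called (limma, adjusted p = 0.0981, and adjusted p = 0.00192 with only those 2 groups in the fit; 0.00192 to 0.231 over 18 alternatives). The ratio of RRM2 to RRM1 was 0.681 ± 0.04498 in 2D, 0.646 ± 0.0865 in 3D_E and 0.922 ± 0.126 in 3D_L. It was higher in each 3D_L library than in any other library (2-sided exact permutation p = 0.1 against 2D, adjusted p = 0.138). The ratio of DCTD to RRM2 was 1.2 ± 0.0474 in 2D, 0.364 ± 0.0709 in 3D_E and 0.467 ± 0.0164 in 3D_L, higher in each 2D library than in any other (2-sided exact permutation p = 0.1 against 2D, adjusted p = 0.138). The sixth ratio, of ORC1 to ORC4, was 0.167 ± 0.00743 in 2D, 0.0467 ± 0.000669 in 3D_E and 0.122 ± 0.0174 in 3D_L, with no overlap between groups (2-sided exact permutation p = 0.1 against 2D, adjusted p = 0.138).

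**Figure D3:**
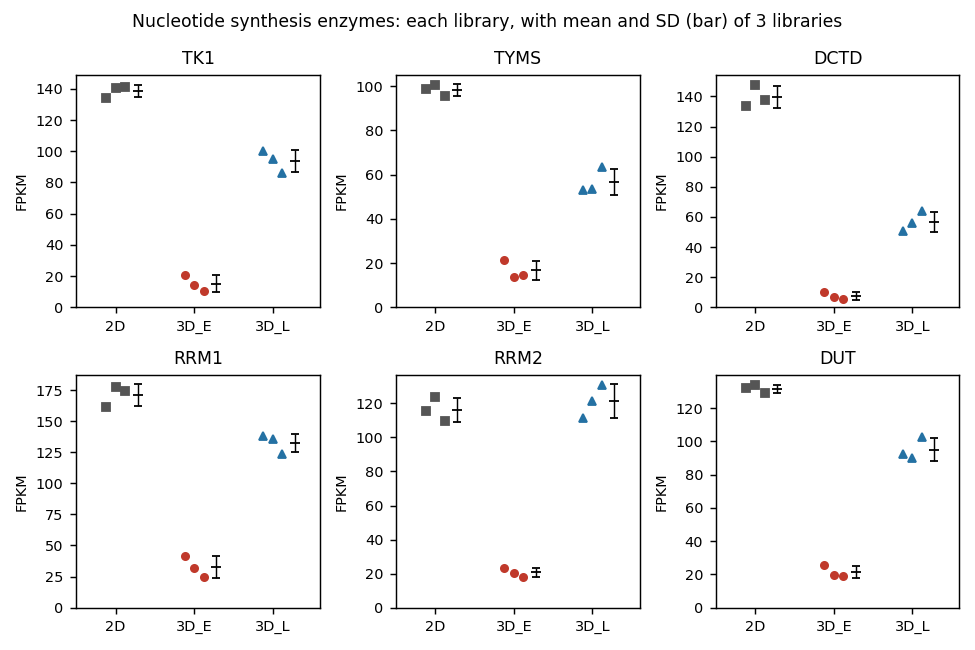
FPKM of the 6 nucleotide synthesis genes in each library (points, 3 per group, linear axes from 0) with the mean and SD of the group beside them. RRM2 in 3D_L, at 121 ± 9.81, reaches its 2D level, 116 ± 6.97, while DCTD in 3D_L, at 56.8 ± 6.54, stays far below its own, 139 ± 7.21.

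Order of level also changed between groups on the FPKM scale, which is per length. In 2D the most abundant genes after PCNA (354 ± 16.1) were RRM1 (171 ± 8.65), TOP2A (149 ± 11.5), DCTD (139 ± 7.21) and TK1 (139 ± 3.96), and TOP2A, DCTD and TK1 did not differ beyond their spread. In 3D_E, PCNA (79.6 ± 18.3) was followed by RFC5 (50.1 ± 12.4), RFC4 (48.8 ± 2.58) and ORC4 (47.1 ± 2.75), which lay within each other's spread. In 3D_L the genes behind PCNA (281 ± 10.6) were RRM1 (132 ± 7.46) and RRM2 (121 ± 9.81), again without a difference beyond their spread. CLSPN was the least abundant gene in 3D_E and 3D_L and MCM8 in 2D.

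The libraries of 3D_E did not vary as a block across these genes, at shares near those of all tested genes. In 19 of the 52 replicate 1 was highest and replicate 3 lowest (36.5%, beside 36.0% of all tested genes), and in 20 replicate 1 was lowest and replicate 3 highest (38.5%, beside 43.0%). All 6 nucleotide genes were lower in replicate 3 than in replicate 1, with differences from -0.35 for RRM2 to -0.97 for TK1 in log2(FPKM + 1). The 6 differences come from the same 2 libraries, and the share of all tested genes lower in replicate 3 was not counted. PCNA, MCM6 and RFC3 were also lower in replicate 3, at -0.65, -0.76 and -0.72. TIMELESS, POLA2 and POLE were higher in replicate 3 by 1.15, 1.08 and 0.997. LIG1, RFC5, GINS1 and DNMT1 followed with 0.80, 0.68, 0.61 and 0.59. Of the 4 genes without a call in 3D_E against 2D, MCM8, TIMELESS, POLE and DNMT1, all were higher in replicate 3 than in replicate 1, MCM8 by 0.37. These genes were picked by the missing call, which a high 3D_E library itself favours, so their shared direction is no separate result. Over all tested genes the difference had a median of 0.05, with 5% of genes under -0.83 and 5% above 0.996. Fibroblast markers differed between these libraries in both directions, with 283, 472 and 663 FPKM of COL1A1 and 709.9, 539.9 and 360.5 of LUM, a matrix proteoglycan, in replicates 1, 2 and 3. Their part in the differences was not tested.

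**Figure D4:**
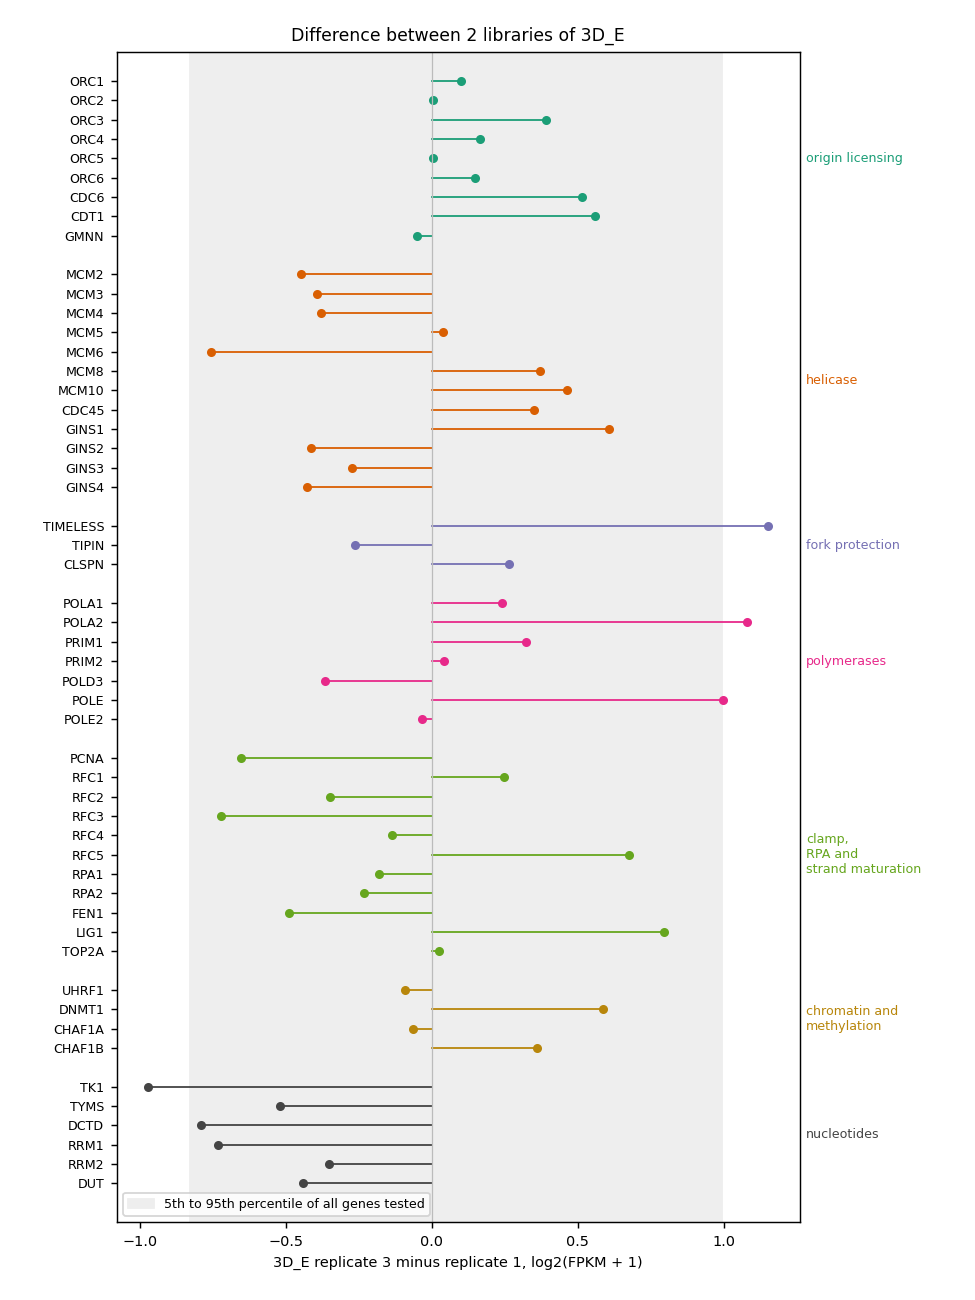
Difference in log2(FPKM + 1) between replicate 3 and replicate 1 of 3D_E for each of the 52 genes (rows, coloured by step), with the range from the 5th to the 95th percentile of all tested genes in grey. Nucleotide genes lie to the left of 0, and TIMELESS (1.15) and POLA2 (1.08) lie furthest to the right.

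Other genes of the pathway were taken from lists that do not include the 52. As the background for their counts, 32.1% of all tested genes were called lower and 36.1% higher in 3D_E against 2D, 16.2% and 20.3% in 3D_L against 2D, and 26.4% and 27.2% in 3D_L against 3D_E. Of 29 further replication factors, 23 were lower and 2 higher in 3D_E, 17 lower and 0 higher in 3D_L, and 20 higher and 2 lower in 3D_L against 3D_E, with median changes of -1.28, -0.41 and 0.93. CCNA2, cyclin A2, which drives S phase with CDK2, had 104, 115 and 105 FPKM in the 2D libraries, 17.4, 13.1 and 8.4 in 3D_E and 69.6, 70.8 and 66.96 in 3D_L, without overlap between groups. SLBP, which binds the stem-loop of replication-dependent histone mRNAs, had 30, 32.5 and 28.7 FPKM in the 2D libraries, 3.11, 2.67 and 2.99 in 3D_E and 15.4, 17.4 and 19.6 in 3D_L, and all groups lay apart. CHTF8, a subunit of an alternative clamp loader, changed by -2.76 in 3D_E. CDC7, the kinase that phosphorylates the loaded helicase, had the largest fall of this list in 3D_L, -1.06, with 23.4, 26.1 and 24.99 FPKM in the 2D libraries, 2.65, 2.86 and 3.18 in 3D_E and 11.1, 11.7 and 11.3 in 3D_L. DNA2, a nuclease of Okazaki fragments, was also lower in 3D_L, at -0.76.

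The 2 factors higher in 3D_E were POLD4 and POLE4, small subunits of DNA polymerases delta and epsilon, named here after their values were seen, with changes of 1.83 and 0.89. POLD4 had 2.7, 2.5 and 2.69 FPKM in the 2D libraries, 5.51, 14.3 and 20.7 in 3D_E and 3.87, 3.4 and 4.44 in 3D_L. POLE4 had 39.4, 38.4 and 34.7 FPKM in the 2D libraries, 46.01, 78.7 and 96.2 in 3D_E and 41.95, 41.5 and 51.9 in 3D_L. For both, every 3D_E library lay above every 2D library, with replicate 1 lowest and replicate 3 highest. In 3D_L neither was called, with changes of 0.43 and 0.26.

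Of 28 further nucleotide enzymes tested, 19 were lower and 3 higher in 3D_E, 13 lower and 1 higher in 3D_L, and 17 higher and 5 lower in 3D_L against 3D_E, with medians of -0.66, -0.31 and 0.39. SHMT1, an enzyme of the folate cycle, and DCK, deoxycytidine kinase, were lower in 3D_E, with changes of -2.45 and -2.46. GART, of purine synthesis, and MTHFD1, which supplies it with one-carbon units, were lower in 3D_L, with changes of -0.78 and -0.77. Those higher in 3D_E were DGUOK, the mitochondrial deoxyguanosine kinase, CTPS2 and ADA, adenosine deaminase, named after their values were seen, with changes of 1.27, 0.21 and 0.82. DGUOK had 13.96, 21.3 and 30.1 FPKM in replicates 1, 2 and 3 of 3D_E, a rise like that of POLD4 and POLE4. CTPS2 was near the limit of a call (limma, adjusted p = 0.0403). ADA was low, with means of 1.82 FPKM in 2D and 4.02 in 3D_E. ADA was also the 1 higher in 3D_L.

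Of 10 further chromatin factors tested, 9 were lower and 0 higher in 3D_E, 5 lower and 0 higher in 3D_L, and 10 higher and 0 lower in 3D_L against 3D_E, with medians of -1.47, -0.35 and 0.99. HELLS, a remodeller needed for DNA methylation, had 94.4, 104 and 99.98 FPKM in the 2D libraries, 16.2, 16.6 and 17.5 in 3D_E and 56.5, 58.9 and 58.4 in 3D_L, and its groups lay apart. NASP, a histone chaperone, changed by -1.82 in 3D_E and -0.88 in 3D_L. HAT1, which acetylates new histone H4, changed by -1.74 in 3D_E, and ASF1A, another histone chaperone, by -0.51 in 3D_L. ESCO2, which acetylates cohesin in S phase, was higher in 3D_L than in 3D_E by 1.47. These lists were drawn up with earlier results of these data known.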

How the data were processed

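RNA of DF-1 cells was sequenced in 9 libraries, 3 per group, by a kit for which no strand marking is given, so overlapping antisense genes may share reads. The authors deposited FPKM values per gene, and per the submitters' processing notes the tools were HISAT2 2.0.5, R 3.4.2 and DESeq2 with the GRCg6a build, with no roles named. Which program and annotation gave the FPKM values is not stated there. Of 94 columns, 82 without a name were not used, and 1 line that names no gene was left out. FPKM is relative within a library, so a few abundant genes can lower all others, and no counts or depth could be had from it. Low values gave no whole reads.

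Members were matched by symbol, and all 52 found have that symbol in RefSeq's gene table. log2(FPKM + 1) was fitted with limma 3.58.1 in R 4.3.3 with trend, all 9 libraries and 6 residual degrees of freedom, and tested on simulated data. The simulated data gave a gene the same spread in every group. They could not show how the fit behaves when 3D_E spreads more than the other groups, as it did here. Ratios were compared on the log2 scale by exact permutation tests. Values in every library are given for the 2 members with the largest and the 1 with the smallest change per step and comparison, besides PCNA, and for other lists up to 3 called genes with the largest change are named. A gene that this rule would name is not reported here. Members and lists were chosen with earlier results of these data known. Alternatives were other pseudocounts, filters, scalings, variance models, a replicate block and leaving out each library.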

Additional observations from a re-analysis of the deposited data

How the results depend on the processing

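The counts of genes lower in 3D_E against 2D and higher in 3D_L against 3D_E stayed within 1.5 times their value under every alternative run. The count lower in 3D_L against 2D was 39 with only the 2 groups compared and 38 with group-specific variance weights, beside 25.2% and 25.5% of all tested genes. The changes stayed as in the main fit, at -0.56 for TK1 and -0.37 for RRM1. Only the error estimates and the p-values drawn from them differed between these fits. The part of the 3D_E scatter in this was not tested. Leaving out 1 library gave 47 to 51 genes lower in 3D_E against 2D, 18 to 34 lower in 3D_L against 2D and 45 to 50 higher in 3D_L against 3D_E. Among 10268 to 10375 tested genes the same fits gave, in that order, 2907 to 3670, 1060 to 2305 and 2218 to 3441. For changes of at least 1, leaving out 1 library gave 38 to 41, 1 to 1 and 30 to 33 of the 52. The share of all tested genes with such changes was not counted in these fits. The counts at 0 stayed at 0.

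Deviations from the group mean correlated from -0.40 to 0.18 between libraries with the same replicate number. Such correlations cannot tell whether the libraries were paired in the experiment. With a replicate block the counts were 48 lower, 22 lower and 47 higher. Among 10436 tested genes that fit gave, in the same order, 3246 lower, 1428 lower and 2701 higher.

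Under quantile normalization MCM8 changed by -0.080 in 3D_E and -0.10 in 3D_L against 2D, and TIMELESS by -0.025 in 3D_L, each with the other sign. Leaving out a library turned the sign of small changes without a call. These ranged from -0.54 to 0.039 for TIMELESS in 3D_E against 2D, -0.00048 to 0.11 for MCM8 in 3D_L against 2D, -0.062 to 0.00053 for GINS4 in 3D_L against 2D, -0.01 to 0.092 for POLD3 in 3D_L against 2D, -0.083 to 0.029 for RFC5 in 3D_L against 2D, -0.18 to 0.0095 for MCM8 in 3D_L against 3D_E and -0.0066 to 0.29 for DNMT1 in 3D_L against 3D_E. The depth is unknown, so no limit from counting can be set.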
